A study of Mus musculus with 2 samples.

Results

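A set of 9 genes of retinoid and aldehyde metabolism were followed in 2 mouse melanoma cultures, B16 and B16/BL6. They were taken by their symbols from the 23284 symbols listed for each library, and they were chosen by name with the FPKM values of these same libraries already known. Their differences between the lines are therefore given as a description, without a test. FPKM is fragments per kilobase of transcript per 1000000 fragments. Both lines come from a melanoma of the C57BL/6 strain, and the more invasive B16/BL6 was raised from B16. The study looked for genes tied to metastasis. Each line gave 1 RNA library, which leaves no replicate error. The B16 culture was kept in DMEM and the B16/BL6 culture in RPMI, with serum and antibiotics in both, so effects of line and of medium cannot be told apart.

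Retinoic acid is made from retinol by a pair of oxidations. Alcohol dehydrogenases (ADH) and short-chain dehydrogenases turn retinol into retinal. Some aldehyde dehydrogenases of the ALDH1A subfamily, those of Aldh1a1, Aldh1a2 and Aldh1a3 among them, turn retinal into retinoic acid. Cellular retinoic acid binding proteins carry the acid, CYP26 hydroxylases break it down, and nuclear receptors (RAR, paired with RXR) act on genes in response to it. Several genes of the pathway, Rarb and CYP26 genes among them, are themselves known retinoic acid response genes. ALDH and ADH enzymes also clear other aldehydes and alcohols.

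Of the 9 genes, 6 passed 2-fold toward B16/BL6 and 0 toward B16. They were Adh1 and Adh7, Aldh1a1 and Aldh1a7, Cyp26b1 and Crabp2. Aldh1a3 and Rarb lay within 2-fold, and Crabp1 was listed at 0 in both libraries. Differences here are log2(FPKM + 1) of B16/BL6 less the same of B16. They were read among the 10709 genes that reached 1 FPKM in either library, which 8 of the 9 did. Of all those genes, 354 (3.31%) were at least 2-fold higher and 338 (3.16%) at least 2-fold lower. On the TPM scale, where both libraries sum to 1000000, the median over all genes was -0.16, the split was 369 higher and 583 lower, and 6 of the 9 genes were higher. Of the 8 genes, 5 (Adh1, Aldh1a1, Aldh1a7, Crabp2 and Rarb) reached 1 FPKM in B16/BL6 alone, so they could enter only with a higher value there; Aldh1a3 reached it in B16 alone, and Adh7 and Cyp26b1 in both.

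The order of the levels changed between the lines. In B16, Adh7 stood first, followed by Cyp26b1, Aldh1a3, Rarb, Adh1 and Crabp2, and 3 genes were listed at 0. In B16/BL6 the order was Adh7, Cyp26b1, Adh1, Aldh1a7, Aldh1a1, Crabp2, Rarb and Aldh1a3. Without replicates, neighbours in these orders cannot be said to differ. Summed over the 9 genes, the level was 11.6 FPKM (B16) and 75.4 FPKM (B16/BL6).

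**Figure D1:**
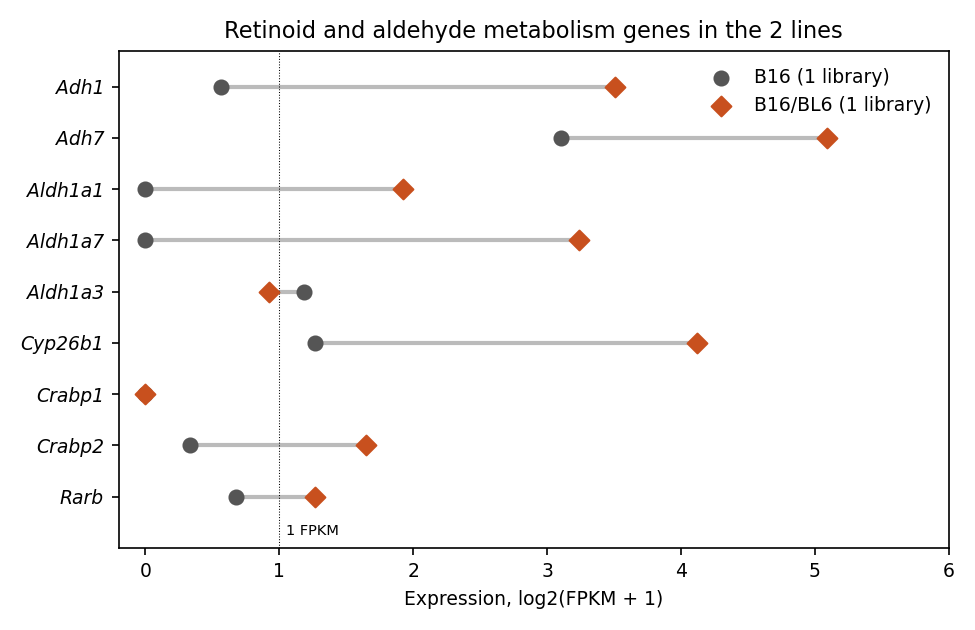
Expression of the 9 genes, as log2(FPKM + 1), with 1 point for the library of each line and a bar between them; the dotted line is 1 FPKM. Adh1, Adh7, Aldh1a1, Aldh1a7, Cyp26b1 and Crabp2 lie over 1 unit higher in B16/BL6, and the points of Crabp1 coincide at 0.

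Promoter windows of these genes hold 2 features, a receptor repeat at Rarb and a sequence common to Aldh1a1 and Aldh1a7. Any part of these features in the FPKM values was not tested. The windows are from RefSeq, build GRCm38.p6 (the assembly that mm10 names), and run from 250 bases before to 50 after a transcription start, 5′ to 3′ along the gene. They were found for 7 of the 9 genes, 8 windows in all. The Rarb window (chr14:16575427-16575726, minus strand) lies inside the Rarb gene, and capitals mark a direct repeat of retinoic acid receptor half-sites.

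Rarb: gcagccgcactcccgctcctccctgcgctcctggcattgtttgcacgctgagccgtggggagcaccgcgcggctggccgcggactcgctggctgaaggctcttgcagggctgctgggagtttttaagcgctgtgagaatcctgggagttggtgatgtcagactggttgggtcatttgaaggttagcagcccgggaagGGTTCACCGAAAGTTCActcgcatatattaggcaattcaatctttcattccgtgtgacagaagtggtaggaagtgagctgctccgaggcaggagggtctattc

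The repeat, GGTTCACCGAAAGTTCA, lies 53 to 37 bases before the start and consists of GGTTCA and AGTTCA with a spacer of 5 bases. It is the textbook response element of this promoter. All windows were searched on both strands for pairs of half-sites in the same orientation with spacers of 1, 2 or 5 bases. The half-sites were AGGTCA, the form AGTTCA, the form GGTTCA, and lastly the form GGGTCA. Such a pair stood in 193 of 32817 windows (0.588%), with a spacer of 5 in 32 (0.0975%), and GGTTCA and AGTTCA in this order with a spacer of 5 in 2. Among the 8 windows found for the members, the Rarb window alone held such a pair. No window was found for Aldh1a3 or Crabp2, so their promoters were not searched. A match is a description of the letters, and its absence elsewhere says only that these letters are not in those windows.

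The windows of Aldh1a1 (chr19:20601718-20602017, plus strand, the second of 2 listed starts) and Aldh1a7 (chr19:20727507-20727806, minus strand) are shown because both genes were listed at 0 in B16 and above 0 in B16/BL6. Capitals mark the longest run that both hold.

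Aldh1a1: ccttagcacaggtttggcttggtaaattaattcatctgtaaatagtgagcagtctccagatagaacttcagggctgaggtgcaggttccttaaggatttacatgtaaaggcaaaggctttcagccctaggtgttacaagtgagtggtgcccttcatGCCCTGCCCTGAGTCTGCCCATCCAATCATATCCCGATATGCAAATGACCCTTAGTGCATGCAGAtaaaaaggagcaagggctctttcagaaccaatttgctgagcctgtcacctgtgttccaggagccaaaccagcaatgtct
Aldh1a7: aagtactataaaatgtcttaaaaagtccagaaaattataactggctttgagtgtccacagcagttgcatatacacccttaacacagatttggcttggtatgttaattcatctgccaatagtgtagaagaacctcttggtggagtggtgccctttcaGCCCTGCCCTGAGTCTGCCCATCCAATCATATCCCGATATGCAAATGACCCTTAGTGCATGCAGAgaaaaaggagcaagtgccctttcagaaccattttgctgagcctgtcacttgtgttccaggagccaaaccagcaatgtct

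The common run is 65 bases long and lies 94 to 30 bases before the start in both genes. Over the last 150 bases of the windows, 142 (94.7%) are identical. The run holds the octamer ATGCAAAT, which stands on either strand in 570 of the 32817 windows (1.74%). Likeness of Aldh1a1 and Aldh1a7 is not confined to the promoter, as their coding sequences are 91.6% identical.

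The alcohol dehydrogenase genes Adh1 and Adh7 were both higher in B16/BL6. Adh1 encodes a class I alcohol dehydrogenase that oxidises ethanol and retinol (chromosome 3, 138277585 to 138290698). Its level was 0.483 FPKM (B16) against 10.3 FPKM (B16/BL6), a ratio of 21.4 and a log2 difference of 2.94. Adh7 encodes the class IV enzyme, which is active on retinol (chromosome 3, 138198064 to 138232042). It was at 7.60 and 33.1 FPKM, a ratio of 4.35 and a log2 difference of 1.99. Adh7 had the highest level of the 9 genes in both lines, ranking 7329th of 13201 symbols above 0 in B16 and 2981st of 13195 in B16/BL6.

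These genes belong to a cluster of alcohol dehydrogenase genes, with 45.5 kb between Adh7 and Adh1. In the same cluster Adh6a and Adh4 were listed at 0 in both libraries. Adh5, the broadly expressed class III gene whose enzyme clears formaldehyde, was at 74.6 and 117 FPKM, a log2 difference of 0.65. Adh5 made up 90.2% (B16) and 73.0% (B16/BL6) of the summed FPKM of Adh1, Adh4, Adh5, Adh6a and Adh7. The coding sequences of Adh1 and Adh7 are 68.8% identical and share no stretch of 50 bases. A noncoding antisense gene overlaps 136 of 2233 exon bases of Adh1 and another 108 of 3787 of Adh7. The antisense gene over Adh7 was listed at 0 in both libraries. Whether reads were counted by strand is not known from the sources used.

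The ALDH1A genes differed among themselves. Aldh1a1 encodes a cytosolic retinal dehydrogenase that is widely used as a marker of stem-like cells (chromosome 19, 20492583 to 20643463). B16 listed it at 0, which can be a failed estimate, and B16/BL6 at 2.79 FPKM. Aldh1a7, a rodent paralog of Aldh1a1 (chromosome 19, 20692953 to 20727556), was likewise at 0 in B16 and reached 8.42 FPKM in B16/BL6. Whether the Aldh1a7 enzyme acts on retinal was not examined. No ratio is given against a value listed at 0. On the log2(FPKM + 1) scale the differences were 1.92 and 3.24, and they depend on the pseudocount. Aldh1a3, which like Aldh1a1 encodes a retinal dehydrogenase (chromosome 7, 66390892 to 66427477), measured 1.28 FPKM (B16) against 0.900 FPKM (B16/BL6), a log2 difference of -0.26. Aldh1a2, the main retinal dehydrogenase gene of the embryo, was listed at 0 in both libraries. Aldh1a3 was thus the only ALDH1A gene above 0 in B16 and the lowest of the 3 above 0 in B16/BL6.

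Aldh1a1 and Aldh1a7 are neighbours, with 49.5 kb between them, and near copies of each other. Their coding sequences, of 1506 bases each, are 91.6% identical, against 67.4% for Aldh1a1 and Aldh1a3. Of the stretches of 50 bases in the Aldh1a7 transcript, 7.49% occur unchanged in that of Aldh1a1, and of those of 100 bases 0.0508%. How reads that fit both genes were divided is not known from the sources used, so the split between Aldh1a1 and Aldh1a7 in B16/BL6 is uncertain.

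Cyp26b1 was higher in B16/BL6, and the other hydroxylase genes were at or near 0. Cyp26b1, which encodes an enzyme that inactivates retinoic acid (chromosome 6, 84571414 to 84593908), measured 1.41 FPKM (B16) against 16.4 FPKM (B16/BL6). The ratio was 11.6 and the log2 difference 2.85. Cyp26a1, a known response gene in many cells, was at 0.0576 and 0.0522 FPKM, a ratio of 0.906, which is the ratio that equal numbers of fragments gave. Cyp26c1 was listed at 0 in both.

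Of the binding protein genes, Crabp2 was low in both libraries and higher in B16/BL6. Crabp2, whose protein passes retinoic acid to the RAR receptors (chromosome 3, 87948693 to 87953372), measured 0.262 FPKM (B16) against 2.13 FPKM (B16/BL6), a ratio of 8.16 and a log2 difference of 1.31. Crabp1 (chromosome 9, 54764748 to 54773110), whose protein keeps retinoic acid in the cytoplasm, was listed at 0 in both libraries. Fabp5, whose protein binds fatty acids and has been described as carrying retinoic acid to the receptor PPARD, was far above Crabp2 at 351 and 592 FPKM, a log2 difference of 0.75.

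Rarb was low in both libraries. It encodes the retinoic acid receptor beta (chromosome 14, 16430839 to 17082331) and measured 0.600 FPKM (B16) against 1.41 FPKM (B16/BL6). The ratio was 2.35, but the log2 difference with the pseudocount was 0.59, under 2-fold. The other receptor genes were more abundant: Rara was at 10.2 and 7.83 FPKM and Rarg at 37.3 and 47.6 FPKM. Rarb made up 1.25% of the summed FPKM of these 3 in B16 and 2.48% in B16/BL6. Of their RXR partners, Rxra was at 37.6 and 47.5 FPKM, Rxrb at 27.1 and 27.0 FPKM, and Rxrg at 1.18 and 1.28 FPKM.

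The value of Rarb has a further limit. In GENCODE M21, exons of Top2b on the opposite strand cover 1793 of 5265 exon bases of Rarb. Top2b, which encodes DNA topoisomerase II beta, measured 25.6 FPKM (B16) against 14.5 FPKM (B16/BL6), so it moved the other way. Its part in the value of Rarb was not tested. The deposited value also does not separate transcripts from the start shown above from those of other starts.

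**Figure D2:**
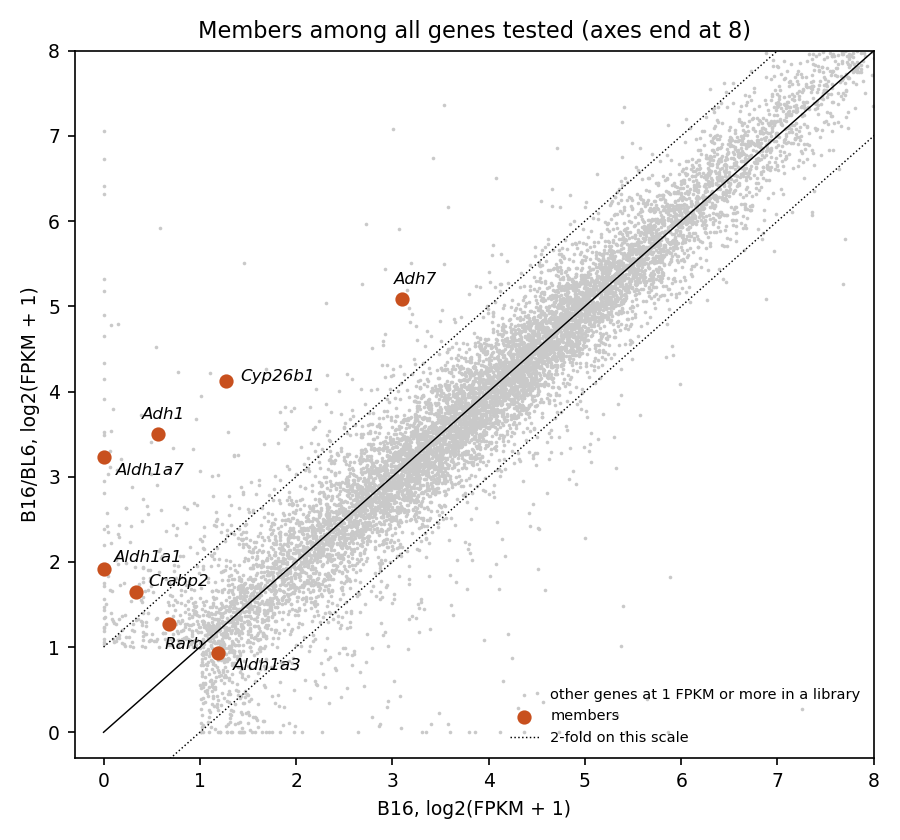
Each grey point is 1 of the genes at 1 FPKM or more in a library, with log2(FPKM + 1) in B16 on the horizontal and in B16/BL6 on the vertical axis, both shown up to 8; the line marks equal values and dotted lines 2-fold. The 8 orange points are the members at 1 FPKM or more, of which 6 lie above the upper dotted line.

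The levels rest on few fragments for several of these genes. Among 379 genes above 0 and under 0.1 FPKM in both libraries, 155 had a ratio within 0.5% of 0.906, which puts B16/BL6 at about 1.10 times the depth of B16. Values of single fragments gave rough depths of 10000000 fragments for B16 and 11100000 for B16/BL6. By these estimates Crabp2 rested on about 2.4 and 22 fragments, and Adh1 on about 7.2 and 172. Rarb rested on about 19 and 49, Aldh1a3 on 44 and 34, Cyp26b1 on 64 and 818, and Adh7 on 262 and 1262. The values of Aldh1a1 and Aldh1a7 in B16/BL6 stood for about 73 and 193. Among the 928 genes that averaged under 2 FPKM, as Aldh1a1, Aldh1a3, Crabp2 and Rarb did, 7.76% were at least 2-fold higher and 9.38% at least 2-fold lower. Among the 1428 that averaged 2 to 5 FPKM, as Aldh1a7 did, 5.67% were higher and 5.95% lower. Of the 3931 at 5 to 20 FPKM, which include Adh1 and Cyp26b1, 2.62% were higher and 2.85% lower. Of the 3474 at 20 to 100 FPKM, which include Adh7, 2.04% were higher and 1.12% lower.

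The other genes of the pathway were counted by role. Of 107 such genes in 11 lists by role, 59 were at 1 FPKM or more in a library; 3 of these (5.08%) passed 2-fold toward B16/BL6 and 1 (1.69%) toward B16, against 3.31% and 3.16% of all genes tested. Their median difference was 0.06, against 0.0053 over all genes tested. Of 8 short-chain retinol dehydrogenases and retinal reductases, 1 was higher: Dhrs3, whose enzyme turns retinal back into retinol, at 1.83 and 5.17 FPKM (log2 difference 1.13). Rdh10, the retinol dehydrogenase gene needed in the embryo, was at 1.87 and 2.32 FPKM. Rdh11, the most abundant of this list, was at 36.5 and 59.2 FPKM.

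The aldehyde dehydrogenases outside the ALDH1A group did not pass 2-fold in either direction. There were 12 of them at 1 FPKM or more, with a median difference of -0.10. Aldh2, the mitochondrial enzyme gene of acetaldehyde breakdown, was at 124 and 207 FPKM (0.74), and Aldh7a1 at 19.7 and 11.8 FPKM (-0.70). Of 10 aldo-keto and carbonyl reductase genes, 1 was higher and 1 lower. The aldose reductase gene Akr1b3 was at 1.85 and 5.01 FPKM (1.08), and the carbonyl reductase gene Cbr1 at 27.7 and 9.12 FPKM (-1.50).

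Among uptake genes, receptors and co-regulators, 1 gene passed 2-fold. Of 3 uptake and storage genes at 1 FPKM or more, Lrp1, which encodes a large endocytic receptor, was at 1.18 and 7.01 FPKM (1.88). The lipoprotein receptor gene Scarb1 was at 72.0 and 69.6 FPKM, and Stra6, the retinol uptake receptor gene, was listed at 0 in B16 and at 0.0641 FPKM in B16/BL6. Of 7 receptor genes and of 12 co-regulator genes, 0 passed 2-fold, with medians of 0.06 and 0.11.

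Of 23 known retinoic acid response genes, 11 were at 1 FPKM or more. Of these, 3 (Cyp26b1, Crabp2 and Dhrs3) were at least 2-fold higher and 0 lower, against 3.31% and 3.16% of all genes tested. Cyp26b1, Crabp2 and Rarb belong to the 9 genes themselves, which were chosen with these values known, so nothing is read from their share. Of the 8 others, 1 was higher and 0 lower, with a median of 0.16. The homeobox gene Meis2 measured 14.2 and 21.9 FPKM (0.59). Ccnd3, a cyclin gene, measured 191 and 141 FPKM (-0.43).

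**Figure D3:**
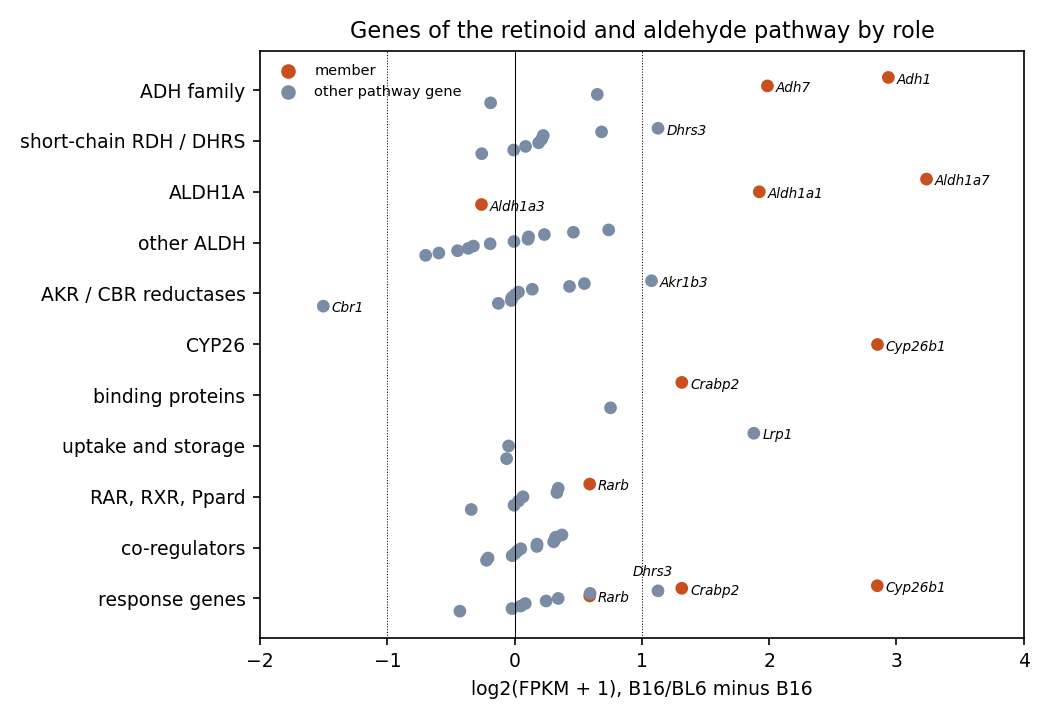
Differences in log2(FPKM + 1), B16/BL6 minus B16, of the pathway genes at 1 FPKM or more in a library, by role; orange points are the members, dotted lines mark 2-fold, and genes in several lists appear in each. Outside the members, Dhrs3, Akr1b3 and Lrp1 lie past 2-fold to the right and Cbr1 to the left.

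Genes beside the members on the chromosome, none of them members, were described next. For each member, the 3 nearest protein-coding genes on either side at 1 FPKM or more were taken. Of these 42 genes, 0 were at least 2-fold higher and 2 lower, against 3.31% and 3.16% of all genes tested. With so few genes, nothing is read from these counts. The median difference of the 42 was -0.04. The genes around Adh7 and Adh1 were all somewhat higher in B16/BL6, from 0.30 to 0.66 around Adh7, against a median of 0.16 on chromosome 3. Those around Aldh1a1 lay between -0.23 and 0.49, and Anxa1, the annexin gene next to it, was at 201 and 176 FPKM. The closest of the genes around Cyp26b1, Exoc6b, was at 10.9 and 14.1 FPKM. All 6 genes around Rarb were below 0, from -1.26 to -0.09, against a median of 0.14 on chromosome 14. Those at higher coordinates lay 1773 to 1840 kb away by start coordinate. The lowest of the 6, the ribosomal protein gene Rpl15, was among these, at 27.1 and 10.7 FPKM. The other gene past 2-fold was Nes, the nestin gene beside Crabp2, at 58.8 and 22.2 FPKM.

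**Figure D4:**
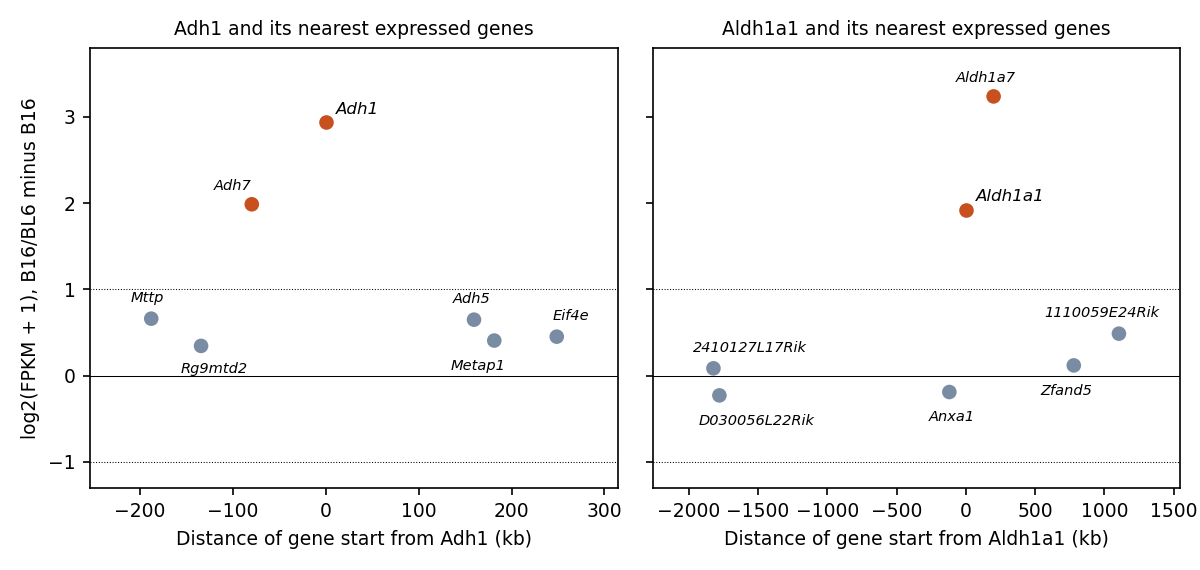
Differences in log2(FPKM + 1), B16/BL6 minus B16, of Adh1 (left) and Aldh1a1 (right) and the 6 nearest genes at 1 FPKM or more, against the distance of the gene starts in kb; orange points are members and dotted lines mark 2-fold. The members lie between 1.92 and 3.24 and the other genes between -0.23 and 0.66.

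A few genes had nearly the same pair of values as a member, by Euclidean distance between log2(FPKM + 1) in the 2 libraries. Nearest to Adh1 was the amino acid transporter gene Slc7a8, at 0.402 and 9.59 FPKM (distance 0.13). Nearest to Adh7 was Lims2, at 7.89 and 35.5 FPKM (0.11), and to Aldh1a7 the phospholipase gene Pla2g5, at 0.0513 and 8.85 FPKM (0.097). Nearest to Cyp26b1 was Abcc2, an efflux transporter gene, at 1.15 and 17.7 FPKM (0.19). Nearest to Aldh1a1 was Adamts9, at 0.0311 and 2.56 FPKM (0.099), and to Crabp2 Tnfrsf21, at 0.344 and 2.16 FPKM (0.092). Nearest to Rarb was Il17rd (0.588 and 1.40 FPKM) and to Aldh1a3 Jak3 (1.30 and 0.922 FPKM). Likeness over 2 libraries is a weak measure.

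Marker genes were read to check the cultures. All 10 melanocytic markers passed 1 FPKM in both lines and summed to 12409 and 18927 FPKM. Tyr (10.6 and 164 FPKM) and Pmel passed 2-fold toward B16/BL6. The differences of 7 of the 10 were above 0. The 3 below 0 were Sox10 (308 and 262 FPKM), Mitf (97.1 and 90.7 FPKM) and Oca2 (18.1 and 14.7 FPKM). All 6 hepatocyte markers, of a cell type known for high Adh1 and Aldh1a1, were listed at 0 in both libraries, as were 7 of 8 keratinocyte and epithelial markers (0.108 and 0.0976 FPKM in sum) and 5 of 8 blood and endothelial markers (0.221 and 0.372 FPKM). The 7 fibroblast markers summed to 0.899 FPKM (B16) against 6.05 FPKM (B16/BL6). The B16 values of Col1a2 and Pdgfra were 0.367 and 0.371 FPKM, and their B16/BL6 values 5.32 and 0.619 FPKM. Col1a1 went the other way, at 0.161 FPKM (B16) and 0.110 FPKM (B16/BL6), and Col3a1, Dcn, Lum and Thy1 were listed at 0 in both. The part of any such cells in the members' values was not tested. In such bulk RNA, a gene made by fewer cells and one with less RNA per cell cannot be told apart.

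**Figure D5:**
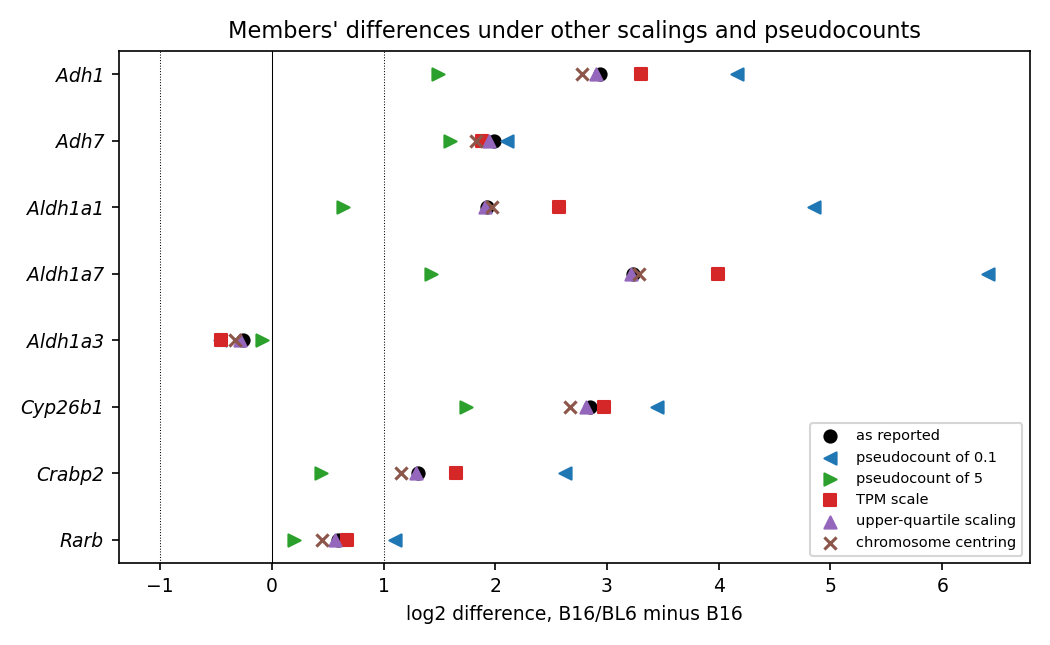
Differences of the 8 members at 1 FPKM or more, B16/BL6 minus B16 on the log2 scale, as reported and under 5 other choices of scaling or pseudocount; dotted lines mark 2-fold. Adh1, Adh7, Aldh1a7 and Cyp26b1 stay past 2-fold under each of them, while Aldh1a1 and Crabp2 fall under it with a pseudocount of 5.

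The size of the differences depended mostly on the pseudocount. With a pseudocount of 5, Aldh1a1 was at 0.64 and Crabp2 at 0.44, both under 2-fold, and 4 of the 9 genes were higher. With a pseudocount of 0.1, Rarb passed 2-fold at 1.11, and 7 of the 9 were higher. With a minimum of 5 FPKM, Aldh1a1, Aldh1a3, Crabp2 and Rarb no longer entered, and the 4 that did were higher. Of these 4, Adh1, Aldh1a7 and Cyp26b1 reached 5 FPKM in B16/BL6 alone, so they could enter only with a higher value there. Adh7 reached it in both. Of all genes tested, 1.41% were higher with a pseudocount of 5, 4.59% with 0.1, and 2.85% with the minimum of 5 FPKM.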

How the data were processed

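Total RNA of cultured B16 and B16/BL6 cells (1 library each) was made into libraries with a stranded mRNA kit, per the labels' protocols. Per the file headers, the authors deposited FPKM, 1 value per gene symbol. Cufflinks 2.2.1, TopHat2 2.0.13, SAMtools 0.1.19, Bowtie2 2.2.3 and the build mm10 stand in the submitters' processing notes, with no roles. Not given in the sources used here are the annotation, the use of strand, the handling of reads that fit several genes, and read counts.

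Count models were not used on FPKM, and single libraries allow no test. A pseudocount of 1 and a minimum of 1 FPKM in at least 1 library were used. The alternatives were pseudocounts of 0.1 and 5, no minimum or one of 5 FPKM, the TPM scale, upper-quartile scaling, and centring each chromosome at its own median. The members and lists were chosen with earlier results of these data known. The rule for names took the members, up to 4 genes per list with the largest differences, the most abundant gene of each list, some relatives of the members, the flanking genes and the 2 nearest in pattern; not all are printed, and some are not reported here. Top2b as an overlapping gene, the octamer, Adh4 and Adh6a were singled out after the data or sequences were seen. The same holds for the melanocytic markers Tyr, Pmel, Sox10, Mitf and Oca2 and for the fibroblast markers named above.

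Positions came from RefSeq (GRCm38.p6), which placed 23039 symbols. Transcript lengths, exon overlaps and coding sequences (longest open reading frame) came from GENCODE M21. For depth, genes under 0.2 FPKM having 1 transcript over 1500 bases were read, and estimates of 8000000 to 14000000 fragments were taken as single fragments, a range set after the spread was seen (80 genes in B16, 75 in B16/BL6). Fragment numbers use the longest protein-coding transcript; they are rough, and no interval was derived. The procedures were tested on simulated data, with planted repeats and with differences planted in genes at 5 FPKM or more in B16. Of the members, Adh7 alone reached that level in B16, so the levels of the others were not covered. Python 3.11.15, pandas 2.3.3 and Biopython 1.88 were used. Protein sequences were not used here.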

Additional observations from a re-analysis of the deposited data

How the results depend on the processing

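With 1 library per line, stability against replicates could not be assessed. The count of the 9 genes at least 2-fold higher was 6, and 4 to 7 under the 7 alternatives. The count at least 2-fold lower was 0 under each. Of all genes tested, 1.41% to 4.59% were higher and 1.1% to 5.18% lower under the alternatives. With the minimum of 1 FPKM, 5 of the 8 members tested could enter only with a higher value in B16/BL6, so nothing is read from the 0. Of the members past 2-fold, none changed direction under any alternative, and nothing is read from this. Pseudocounts and minimums cannot change a direction, and no scaling can for Aldh1a1 and Aldh1a7, at 0 in B16. Shifts by scaling and centring were small beside these differences. The median over all genes was -0.16 on the TPM scale, and the medians of the members' chromosomes lay between -0.06 and 0.18. The lowest and highest log2 differences were 1.49 and 4.17 for Adh1, 1.60 and 2.11 for Adh7, 0.64 and 4.85 for Aldh1a1, 1.42 and 6.41 for Aldh1a7, 1.74 and 3.45 for Cyp26b1, and 0.44 and 2.63 for Crabp2. Rarb lay between 0.19 and 1.11 and Aldh1a3 between -0.46 and -0.09. The other pathway genes at least 2-fold higher went from 3 to 0 with a pseudocount of 5, which shrinks the differences of low genes, and to 2 with each chromosome centred. Over all genes, those higher and lower numbered 151 and 118 with a pseudocount of 5, and 492 and 511 with 0.1. Depth limits the B16 values of Aldh1a1, Aldh1a7 and Crabp1, listed at 0, and of Crabp2, Adh1 and Rarb, which rest on about 2.4, 7.2 and 19 fragments.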
